A study of Homo sapiens with 8 samples.

Results

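PML, 4 receptors for retinoids (RARA, RARG, RXRA and RXRB) and 4 genes known to answer to retinoic acid (TGM2, CD38, DHRS3 and CYP26A1) were examined in NB4, an established line of human acute promyelocytic leukaemia that carries the PML-RARA fusion. These 9 genes were taken from a fixed list of names, out of 18132 genes that a probe set of the array reads alone. Each gene stands at its probe set with the highest mean signal over the arrays, and every probe set of PML and RARA is described. A probe set is a group of short probes that together read 1 or more transcripts. Its value is a log2 signal, so that a difference of 1 is a doubling. Levels can be compared between arrays for the same probe set but not between probe sets. Lentivirus was given to all the cells at a multiplicity of infection of 10, and it carried either a scrambled control hairpin or 1 of 3 hairpins against the kinase CDK2, called shCDK2 #1, #3 and #10. RNA was taken 2 or 5 days later, which the submitters describe as early and late in differentiation. There were 8 arrays, 1 for each construct and day, with no untransduced cells, and the labels name no retinoid. The scramble group thus held 1 array and the shCDK2 group 3 arrays, 1 per hairpin, on each day.

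Retinoic acid acts through receptors that work as pairs of a RAR and an RXR protein, which sit on DNA at repeats of a short half-site. Without ligand the pair holds corepressors, and with ligand it releases them and recruits coactivators, so that target genes are transcribed. In acute promyelocytic leukaemia a translocation joins PML, the organising protein of PML nuclear bodies, to RARA, and the fusion protein keeps retinoic acid targets silent until retinoic acid is given at pharmacological doses and the cells mature.

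Array medians lay between 6.30 and 6.43, and the array of shCDK2 #3 at day 5 stood at the end of both measures of distribution, with the smallest median and a standard deviation of 2.26, the largest. The largest median was that of the array labelled scramble at day 5. The signal of CDK2, the gene targeted, was 9.10 in scramble, 7.78 in shCDK2 #1, 9.03 in the array labelled shCDK2 #3 and 7.54 in shCDK2 #10 at day 2. At day 5 it was 8.19 in the array labelled scramble, 7.89 in shCDK2 #1, 7.72 in shCDK2 #3 and 8.09 in shCDK2 #10. The array labelled shCDK2 #3 at day 2 was thus near scramble, and the array labelled scramble at day 5 lay close to the hairpins. The DHRS3 changes of shCDK2 #3 and #10 are therefore also given with 1 of them left out. Counts of called genes for shCDK2 #3 and #10 are given as ranges with any 1 array left out. Of 9 promyelocyte markers on the array, 7 lay above the filter on low values, a mean of 5.83 log2. So did 5 of 5 fibroblast and epithelial, 4 of 4 erythroid and megakaryocyte and 4 of 5 lymphoid markers. Of mature neutrophil markers 2 of 7 did, and of stem and progenitor markers 1 of 3. Passing the filter thus does not tell the cell type. MPO, the granule peroxidase, ranged from 13.4 to 14.4, whereas KIT and HGF lay under the filter. Monocyte and macrophage markers had a mean level, over 6 genes, of 5.72 to 6.20 in the day 2 arrays, in scramble at day 5 and in shCDK2 #1 at day 5, but of 7.33 in shCDK2 #3 and 8.78 in shCDK2 #10 at day 5.

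The RefSeq table of promoters (build GRCh38.p14) held 14 windows for 7 of the 9 genes, and PML and TGM2 were not among them. A half-site, meaning AGGTCA or one of its variants (AGTTCA as well as GGGTCA and also GGTTCA, on either strand), was searched in the 250 bases before each start. It was found in 6 of the 14 windows and in 33.8% of all 35116 windows in the table. A direct repeat of any of these half-sites with 5 bases between them was much rarer, at 0.074% of all windows. Only 1 of the 14 windows held it, the second start of CYP26A1, the enzyme that breaks retinoic acid down. That window is shown because it carries the repeat, and 2 windows of DHRS3 because this gene differed most between the constructs. Capitals mark half-sites, and each window is written 5' to 3' on the strand of its gene.
CYP26A1, chr10:93073643-93073892, plus strand: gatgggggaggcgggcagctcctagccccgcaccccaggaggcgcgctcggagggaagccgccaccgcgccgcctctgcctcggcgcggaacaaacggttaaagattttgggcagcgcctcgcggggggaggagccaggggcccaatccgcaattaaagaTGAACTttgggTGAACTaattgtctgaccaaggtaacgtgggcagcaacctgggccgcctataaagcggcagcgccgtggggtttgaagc
DHRS3, first start, chr1:12618211-12618460, minus strand: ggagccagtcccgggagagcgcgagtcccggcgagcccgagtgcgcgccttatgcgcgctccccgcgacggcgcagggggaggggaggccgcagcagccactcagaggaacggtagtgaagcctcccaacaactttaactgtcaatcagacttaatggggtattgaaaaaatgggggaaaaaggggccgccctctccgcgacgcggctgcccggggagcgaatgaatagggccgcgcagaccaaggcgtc
DHRS3, second start, chr1:12616790-12617039, minus strand: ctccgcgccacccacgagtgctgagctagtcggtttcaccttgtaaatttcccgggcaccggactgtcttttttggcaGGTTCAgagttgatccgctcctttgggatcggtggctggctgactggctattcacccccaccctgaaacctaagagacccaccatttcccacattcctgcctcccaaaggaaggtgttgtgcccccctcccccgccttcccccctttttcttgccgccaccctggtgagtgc
The repeat in CYP26A1 lay from -90 to -74 relative to the start, on the opposite strand, where it reads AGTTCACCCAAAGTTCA. In DHRS3 the window of the first start held no half-site, and that of the second start held 1, from -172 to -167, which does not make a repeat. The last DHRS3 window in the table, chr1:12596614-12596863, also held 1 half-site, from -171 to -166 on the opposite strand, and no repeat. A match describes letters only, and no binding was measured.

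Of the 9 genes, 8 had a mean above the filter and were tested, within a fit of all 12845 genes above it. CYP26A1 was tested only in the alternative with no filter. Each hairpin was set against scramble with limma, a linear model with a moderated spread, using construct and day as terms so that the 2 days stood in as repeats. An adjusted p (Benjamini-Hochberg over all genes tested) under 0.05 was called. None of the 8 genes was called with limma in shCDK2 #1, where 0% of all genes were called and none of the 8 had an unadjusted p under 0.05. None was called in shCDK2 #3, against 0.0311% of all genes, and 1 of the 8, DHRS3, had an unadjusted p under 0.05, as did 9.47% of all genes. In shCDK2 #10 none was called, against 2.01% of all genes, and 1 of the 8, again DHRS3, had an unadjusted p under 0.05, as did 20.2% of all genes. The median change of the 8 genes was 0.03 in shCDK2 #1, -0.17 in shCDK2 #3 and 0.03 in shCDK2 #10, beside -0.02, -0.07 and -0.09 over all genes. The hairpin comparisons share the 2 scramble arrays. Nothing in the labels tells whether each array had a culture of its own. The p-values thus reflect the spread among these arrays alone, which may be technical. In this model that spread is how differently the constructs changed between the 2 days, and array noise cannot be told apart from it. In bulk RNA fewer cells of a type and less RNA per cell cannot be told apart.

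**Figure D1:**
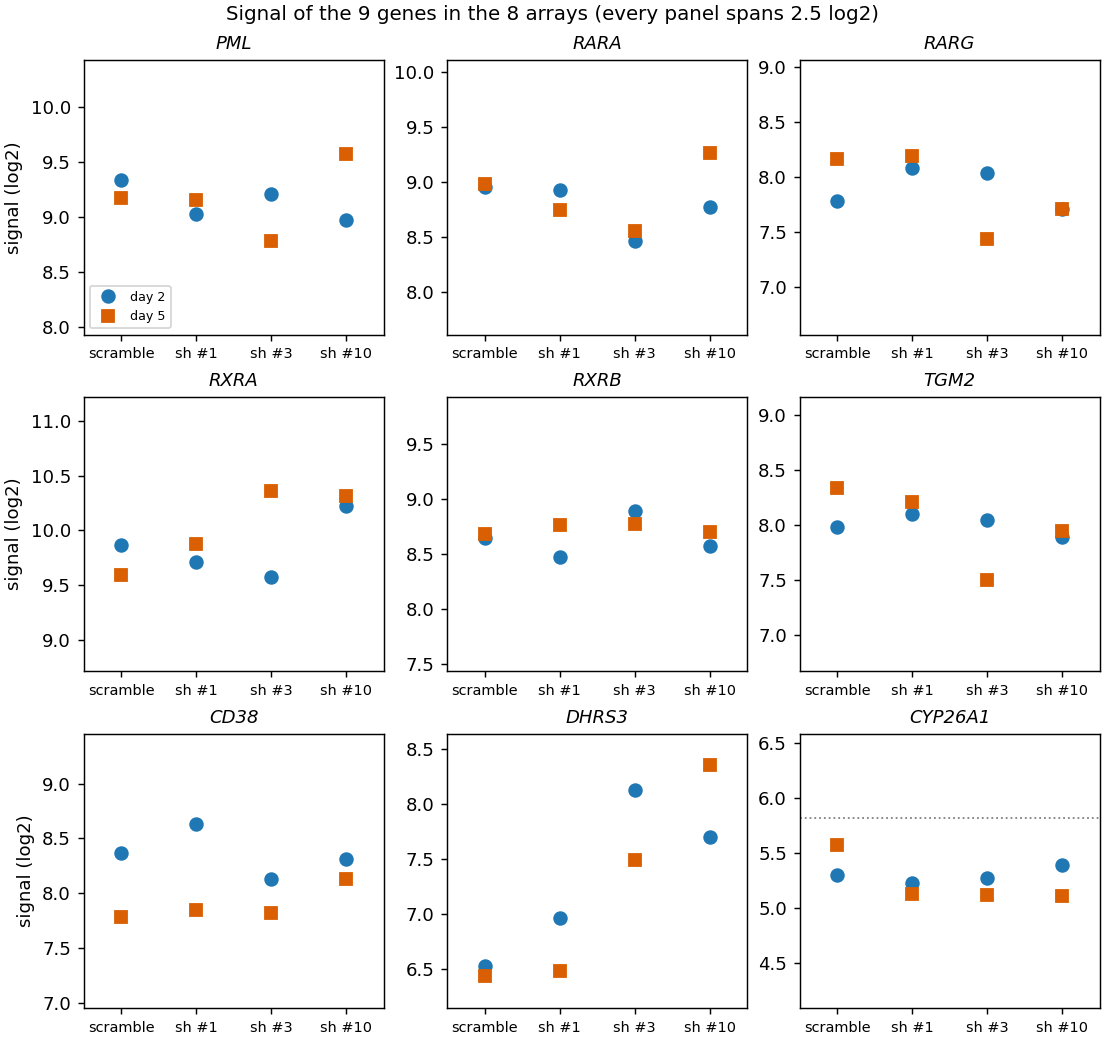
Log2 signal (vertical axis, 2.5 log2 in every panel) of each of the 9 genes in the 4 constructs, with 1 point per array (circles day 2, squares day 5; sh stands for shCDK2). DHRS3 lies between 7.49 and 8.36 in the 4 arrays of shCDK2 #3 and #10 and between 6.43 and 6.96 in the other 4, and the dotted line for CYP26A1 is the filter of 5.83.

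DHRS3 differed most. It encodes a reductase that turns retinaldehyde back into retinol and is itself induced by retinoic acid, on the minus strand of chr1:12567910-12618210 (GRCh38.p14). Its signal in scramble was 6.52 at day 2 and 6.43 at day 5. In shCDK2 #1 it was 6.96 and 6.48, in shCDK2 #3 8.13 and 7.49, and in shCDK2 #10 7.70 and 8.36 on the same days. All 4 arrays of shCDK2 #3 and #10 thus lay above all 4 arrays of scramble and shCDK2 #1, a split seen in these values and not set beforehand. The share of all genes that separate along the same split was not counted. The order of the days was not the same in the hairpins, since day 5 was lower by 0.64 in shCDK2 #3 and higher by 0.65 in shCDK2 #10.

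Over both days DHRS3 was 1.55 log2 higher in shCDK2 #10 than in scramble (SE 0.31, 95% interval 0.84 to 2.27), or 2.94-fold. Its adjusted p was 0.0521 with limma, just outside the threshold: it stood at rank 284 by p, and 258 genes were called. In shCDK2 #3 it was 1.33 higher (SE 0.31, 95% interval 0.62 to 2.05, 2.52-fold), with an adjusted p of 0.264 in limma. In shCDK2 #1 it was 0.24 higher (95% interval -0.47 to 0.96), with an adjusted p of 1 in limma. Set against each other, shCDK2 #10 exceeded shCDK2 #1 by 1.31 (95% interval 0.60 to 2.02, limma adjusted p = 0.112) and shCDK2 #3 exceeded shCDK2 #1 by 1.09 (95% interval 0.37 to 1.80, limma adjusted p = 0.261). The difference of shCDK2 #10 from shCDK2 #3 was 0.22 (95% interval -0.49 to 0.94). None of the 8 genes was called with limma in these 3 comparisons, in which 0.327%, 0% and 0% of all genes were called. DHRS3 had an unadjusted p under 0.05 in the first 2 of them and RARA in the last, as did 15.8%, 12% and 5.76% of all genes.

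The DHRS3 result of shCDK2 #10 lay close enough to the threshold to cross it with other settings. It passed in 6 of 13 alternatives, which are not 6 separate fits. Leaving out either array of shCDK2 #1 gives the same fit for this change, and so does leaving out either array of shCDK2 #3. It passed in those fits, each with 1 array left for that hairpin, and with an intensity trend in limma (adjusted p = 0.0443). It also passed without shCDK2 #10 at day 2, where the change was 2.08. The last of these leaves shCDK2 #10 as 1 array, which is assumed to vary like the other constructs, so its p does not measure the spread of shCDK2 #10. Without shCDK2 #10 at day 5 the change was 1.03 (limma adjusted p = 0.116). Without the array labelled scramble at day 5 it was 1.59 (limma adjusted p = 0.225), and the change of shCDK2 #3 was 1.36 (limma adjusted p = 0.723). Without the array labelled shCDK2 #3 at day 2 the change of shCDK2 #3 was 1.00 (limma adjusted p = 0.140). In each of these the construct that lost an array is also down to 1. The difference of shCDK2 #10 from shCDK2 #1 passed without shCDK2 #10 at day 2 (1.84, limma adjusted p = 0.0261), again with 1 array in that arm, and without shCDK2 #10 at day 5 it was 0.78.

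DHRS3 has 2 more probe sets, both dimmer. The probe set 11749344_a_at, with a mean of 5.67 under the filter, was higher than scramble by 0.55 and 0.23 in shCDK2 #3 and by 0.33 and 0.86 in shCDK2 #10 at days 2 and 5. The probe set 11761551_at, with a mean of 6.10, differed from scramble by 0.16 and -0.47 in shCDK2 #3 and by -0.02 and -0.23 in shCDK2 #10. The first therefore went the way of the brightest probe set at a smaller size, and the other did not. With the mean of the 3 probe sets the change in shCDK2 #10 was 0.67 (limma adjusted p = 0.129). Of the 6 monocyte and macrophage markers, CD14, CD163, MARCO, CSF1R and FCGR1A had their highest values in shCDK2 #10 at day 5 and their next highest in shCDK2 #3 at day 5, both of them arrays in which DHRS3 was high. MRC1 lay under the filter in every array, at 3.51 and 3.63 in these arrays. In the array labelled shCDK2 #3 at day 2, where DHRS3 was 8.13, CD14 was 5.30 and FCGR1A 8.29, beside 5.19 and 8.32 in scramble. In shCDK2 #10 at day 2 CD14 was 5.76, but FCGR1A was 9.61, near its 9.88 in shCDK2 #3 at day 5. The part of these markers in the DHRS3 result was not tested.

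**Figure D2:**
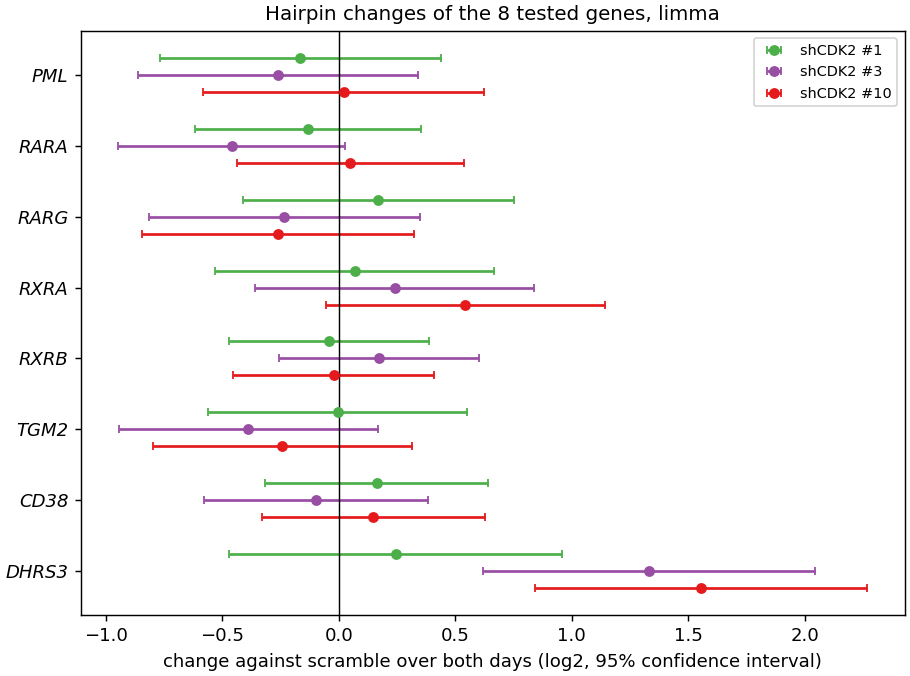
Change of each of the 8 tested genes against scramble over both days (horizontal axis, log2; points are limma estimates and bars their 95% confidence intervals, with 1 colour per hairpin). The intervals of DHRS3 in shCDK2 #3 and #10 lie above 0, from 0.62 to 2.05 and from 0.84 to 2.27, and those of the other 7 genes all include 0.

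The other targets varied less than DHRS3, whose 8 values spanned 1.93. CD38 and TGM2 each spanned 0.84, and CYP26A1 spanned 0.47. CD38, a surface ectoenzyme induced by retinoic acid in myeloid cells (chr4:15778328-15853232), had a signal of 8.37 in scramble, 8.63 in shCDK2 #1, 8.13 in shCDK2 #3 and 8.32 in shCDK2 #10 at day 2. At day 5 it was 7.78, 7.85, 7.82 and 8.13 in the same order. All 4 constructs were lower at day 5, by 0.58 in scramble and by 0.78, 0.30 and 0.19 in shCDK2 #1, #3 and #10, although the highest day 5 array (8.13) reached the lowest day 2 array. Over the 3 hairpins day 5 differed from day 2 by -0.42 (SE 0.18, 95% interval -0.85 to 0.01), with an adjusted p of 1 in limma and an unadjusted p of 0.0524. In this fit, which takes the 3 hairpins as the repeats and a mean for each group and day, none of the 8 genes was called and none had an unadjusted p under 0.05, while limma called 0% of all genes and 2.02% had an unadjusted p under 0.05. The changes of CD38 against scramble were 0.16 in shCDK2 #1, -0.10 in shCDK2 #3 and 0.15 in shCDK2 #10.

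TGM2, tissue transglutaminase, a protein-crosslinking enzyme induced by retinoic acid in leukaemia cells (chr20:38127385-38168475), had a signal between 7.89 and 8.10 in the 4 day 2 arrays. At day 5 it was 8.34 in scramble, 8.21 in shCDK2 #1, 7.50 in shCDK2 #3 and 7.95 in shCDK2 #10. The lowest value was thus in shCDK2 #3 at day 5 and the highest in the array labelled scramble at day 5. The change over both days was -0.01 in shCDK2 #1, -0.39 in shCDK2 #3 (95% interval -0.95 to 0.17, limma adjusted p = 0.643) and -0.24 in shCDK2 #10. In shCDK2 #3 it was -0.03 when its day 5 array was left out, and -0.75 when its labelled day 2 array was left out. In shCDK2 #10 it was -0.0064 without the array labelled scramble at day 5 and -0.48 without scramble at day 2. Of the 4 probe sets of TGM2, 2 lay above the filter, and both had their lowest value in shCDK2 #3 at day 5. CYP26A1 (chr10:93073475-93077885), with the repeat shown above, lay between 5.11 and 5.57 in all 8 arrays, under the filter of 5.83 in each. The array labelled scramble at day 5 held its highest value, and the hairpins of that day were 0.45, 0.46 and 0.47 below it in shCDK2 #1, #3 and #10. With no filter, its changes over both days were -0.26, -0.24 and -0.19 in the same order, and none was called with limma.

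Among the receptors, RARA, the retinoic acid receptor alpha and fusion partner of PML (chr17:40309180-40357643), had a signal of 8.96 in scramble, 8.93 in shCDK2 #1, 8.46 in the array labelled shCDK2 #3 and 8.78 in shCDK2 #10 at day 2. At day 5 the values were 8.98, 8.74, 8.56 and 9.26. Both arrays of shCDK2 #3 were the lowest of the 8. The change in shCDK2 #3 was -0.46 (SE 0.21, 95% interval -0.95 to 0.03, limma adjusted p = 0.545, and -0.51 to -0.41 with any 1 array left out), that in shCDK2 #1 -0.13 and that in shCDK2 #10 0.05. The difference of shCDK2 #10 from shCDK2 #3 was 0.51 (95% interval 0.02 to 0.99), with an unadjusted p of 0.0432 and an adjusted p of 0.846 in limma.

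All 10 probe sets of RARA lay above the filter, and in the fit over 27129 probe sets limma called none of them in any hairpin, nor did any have an unadjusted p under 0.05. The share of all probe sets called there was 0%, 0% and 1.04% in shCDK2 #1, #3 and #10. In shCDK2 #3 the change was below 0 for all 10, from -0.46 to -0.08. The 3 brightest, 11722900_s_at, 11727352_x_at and 11727350_x_at, were below scramble in shCDK2 #3 on both days. The other 7 were below it at day 5 only, and 6 of the 10 had their lowest value in that array, which also had the lowest median of the 8. In shCDK2 #10 the changes ran from -0.17 to 0.16. Probe sets of 1 gene share its transcripts and are not repeats of a condition, and which of the normal and fusion transcripts each one reads was not tested.

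RARG, the gamma receptor (chr12:53210569-53232209), had a signal of 7.78, 8.09, 8.04 and 7.71 in scramble, shCDK2 #1, #3 and #10 at day 2 and of 8.16, 8.20, 7.44 and 7.71 at day 5. Its 5 probe sets all had their lowest value in shCDK2 #3 at day 5. The changes were 0.17 in shCDK2 #1, -0.23 in shCDK2 #3 and -0.26 in shCDK2 #10, and none was called. RARG and TGM2 followed each other over the 8 arrays, with a Pearson r of 0.934, given as a description of 8 arrays that both genes share. Both were lowest in shCDK2 #3 at day 5, the array with the smallest median. TGM2 was highest in the array labelled scramble at day 5, which had the largest. The part of array-wide signal in this likeness was not tested.

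RXRA, the common partner of RAR and other nuclear receptors (chr9:134326455-134440585), had a signal of 9.86, 9.71, 9.58 and 10.23 in scramble, shCDK2 #1, #3 and #10 at day 2 and of 9.59, 9.88, 10.36 and 10.31 at day 5. Both arrays of shCDK2 #10 and that of shCDK2 #3 at day 5 were above the other 5. The change in shCDK2 #10 was 0.54 (95% interval -0.06 to 1.14, limma adjusted p = 0.292), and the changes in shCDK2 #1 and #3 were 0.07 and 0.24. In shCDK2 #10 it was 0.23 without the array labelled scramble at day 5 and 0.85 without scramble at day 2. At day 5 the 3 hairpins together were 0.59 above the array labelled scramble (95% interval -0.16 to 1.34, limma adjusted p = 0.913), and there limma called none of the 8 genes and 0% of all genes, with none of the 8 at an unadjusted p under 0.05. The second probe set of RXRA did not follow this order, since the array labelled shCDK2 #3 at day 2 held its highest value, 9.21. RXRB, the beta form (chr6:33193588-33200853), varied least of the 8 tested genes, from 8.47 to 8.90, with changes of -0.04, 0.17 and -0.02 in shCDK2 #1, #3 and #10. Over the 7 genes other than DHRS3 the changes in the 3 hairpins lay between -0.46 and 0.54, and their 95% intervals between -0.95 and 1.14.

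At day 2 the 3 hairpins together also gave no call among the 8 genes with limma, where 0% of all genes were called and none of the 8 had an unadjusted p under 0.05. DHRS3 was 1.08 above scramble at day 2 (95% interval -0.58 to 2.73) and 1.01 above the array labelled scramble at day 5 (95% interval -0.64 to 2.66). Without the array labelled shCDK2 #3 at day 2 the day 2 value was 0.81. The day 5 value lay between 0.56 and 1.49 with any 1 hairpin array left out, and it cannot be had without the array labelled scramble at day 5, the only control of that day. The difference between these changes was -0.06 (95% interval -2.40 to 2.27), in a comparison where limma again called none of the 8 genes and 0% of all genes, with none of the 8 at an unadjusted p under 0.05. On both days shCDK2 #1 lay closest to scramble and the other hairpins above it.

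PML, the nuclear body protein (chr15:73994716-74047827), had a signal of 9.34 in scramble, 9.03 in shCDK2 #1, 9.21 in the array labelled shCDK2 #3 and 8.98 in shCDK2 #10 at day 2. At day 5 the values were 9.17, 9.16, 8.78 and 9.58. The lowest and the highest values were both in hairpin arrays at day 5. The changes over both days were -0.17 in shCDK2 #1, -0.26 in shCDK2 #3 and 0.02 in shCDK2 #10 (limma adjusted p = 0.973 in the last).

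The probe sets of PML did not move alike. Of 10, 9 lay above the filter. None was called with limma in any hairpin, against 0%, 0% and 1.04% of all probe sets in shCDK2 #1, #3 and #10. An unadjusted p under 0.05 was found for 2, both in shCDK2 #10, where 20.2% of all genes had one. That share was not counted over probe sets. The probe set 11726875_a_at had a signal of 5.81, 6.08, 6.09 and 6.65 in scramble, shCDK2 #1, #3 and #10 at day 2 and of 5.92, 6.13, 6.22 and 6.82 at day 5. Both arrays of shCDK2 #10 were the highest, and the change was 0.87 (SE 0.17, limma adjusted p = 0.0587). After quantile normalization it was 0.89 and passed (limma adjusted p = 0.0472), and after median centring 0.90 (adjusted p = 0.0799). The probe set 11726876_a_at was 0.99 and 0.81 above scramble in shCDK2 #10 at days 2 and 5, a change of 0.90 (SE 0.22, limma adjusted p = 0.0912). The 3 brightest probe sets were below scramble by 0.37 to 0.49 in shCDK2 #10 at day 2 and above it by 0.27 to 0.41 at day 5. PML is also known as an interferon-induced gene. The mean level of 27 interferon response genes was 7.33 and 7.47 in scramble, 7.60 and 7.42 in shCDK2 #1, 7.49 and 8.77 in shCDK2 #3 and 8.45 and 10.14 in shCDK2 #10 at days 2 and 5, and its part in the PML values was not tested.

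**Figure D3:**
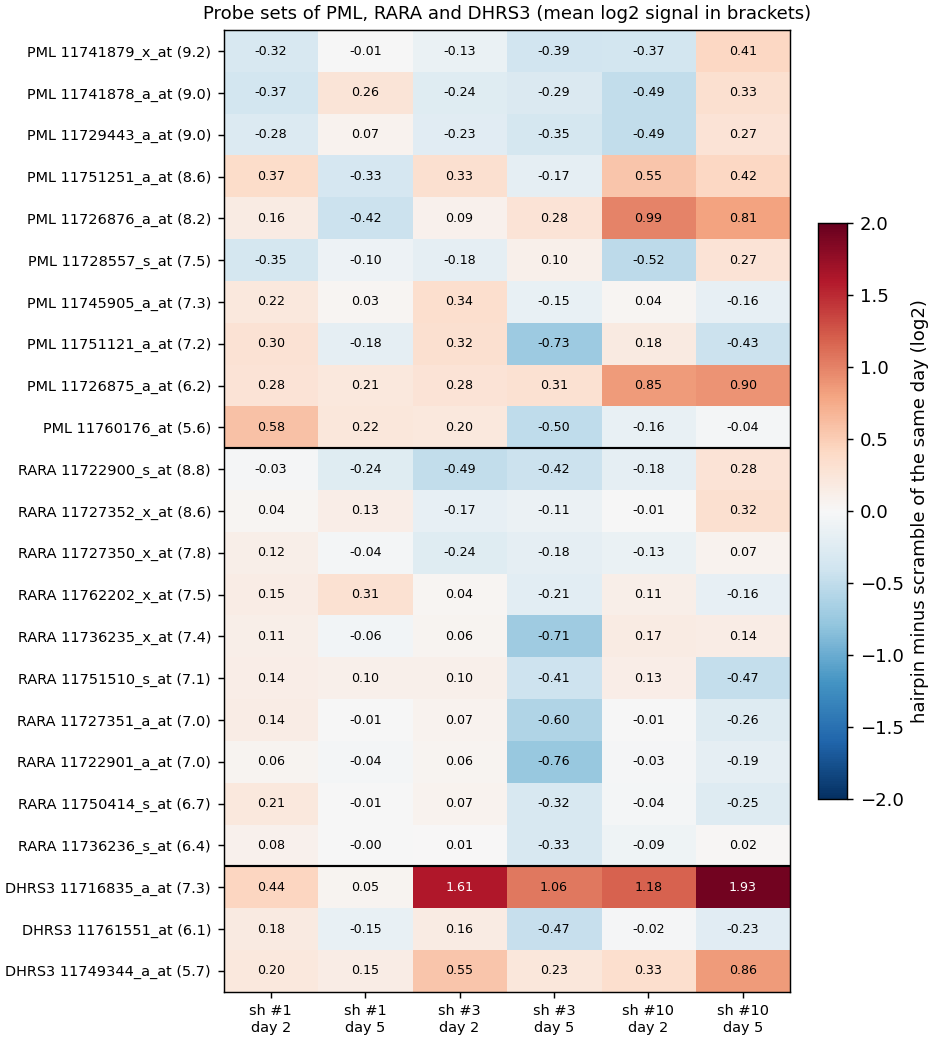
Log2 difference of each hairpin array from the scramble array of its day (colour and number in each cell) for every probe set of PML, RARA and DHRS3, ordered within a gene by mean log2 signal, which is given in brackets. The probe sets 11726876_a_at and 11726875_a_at of PML are 0.81 to 0.99 above scramble in shCDK2 #10, all 10 of RARA are below scramble in shCDK2 #3 at day 5, and the brightest of DHRS3 is 1.06 to 1.93 above it in shCDK2 #3 and #10.

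The tested genes whose pattern over the 8 arrays was most like that of a member were found by Pearson r, as a description with no test. For DHRS3 they were PPP3CC (r = 0.982), SH3RF3 (0.982) and LEMD2 (0.974). For PML they were WDR83 (0.956), RAB3IL1 (0.947) and SAP30BP (0.921), and for CD38 FLOT2 (0.948), TRIQK (0.900) and RAB38 (0.900). For TGM2 they were VSTM4 (0.995), FAM83C (0.993) and STARD7-AS1 (0.992). All 3 genes most like TGM2 had, as it did, their highest value in the array labelled scramble at day 5 and their lowest in shCDK2 #3 at day 5. These are the arrays with the largest and the smallest median.

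Around these members, other genes of the pathway were read from lists. Of all genes 1.69% were called higher in shCDK2 #10 and 0.319% lower. Of 15 tested receptors and cofactors, 1 was called higher there and none lower. The 1 was TBL1X, a subunit of the corepressor complex that unliganded receptors hold, with a signal of 8.74 and 8.65 in scramble, 8.92 and 9.02 in shCDK2 #1, 9.10 and 9.77 in shCDK2 #3 and 10.03 and 10.13 in shCDK2 #10 at days 2 and 5. Both arrays of shCDK2 #10 were the highest, and its change was 1.39 (SE 0.22, limma adjusted p = 0.0385). The median of the list was 0.02, against -0.09 over all genes. Of 16 tested genes of retinoid transport and metabolism none was called (median -0.16), and the one with the largest mean change was FABP5, a fatty acid binding protein that also carries retinoic acid, at -1.02 in shCDK2 #10 (limma adjusted p = 0.177). Of 9 partner receptors of RXR none was called, and PPARG, the adipogenic receptor, was 1.06 higher in shCDK2 #10 (limma adjusted p = 0.0516).

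Of 30 tested genes known to rise with retinoic acid in these leukaemia cells, 5 were called higher in shCDK2 #10 and none lower. Over both days 23 of the 30 were above scramble in shCDK2 #10, called or not, and the others were below it. Of all genes 1.69% were called higher there and 0.319% lower. The median change of the list was 0.83, against -0.09 over all genes. TNFSF10, the death ligand TRAIL, rose by 4.04 (SE 0.74, limma adjusted p = 0.0459), from 6.54 and 7.34 in scramble to 10.00 and 11.97 in shCDK2 #10 at days 2 and 5. CDKN1A, an inhibitor of cyclin-dependent kinases, rose by 2.52 (limma adjusted p = 0.0218), and PLAAT4, a retinoid-induced growth suppressor, by 2.45 (0.0408). BTG1, an antiproliferative factor, rose by 1.89 (0.0249), and UBA7, the activating enzyme of ISG15, by 1.32 (0.0377). BTG1 was also higher in shCDK2 #10 than in shCDK2 #1, by 1.84 (limma adjusted p = 0.0472), the only call of a list gene in that comparison. That call ended after median centring and without either scramble array, shCDK2 #1 at day 5 or shCDK2 #10 at day 5, where limma called no gene at all in the comparison. ITGAM, the maturation marker CD11b, was 6.88 and 8.14 in scramble and 11.16 and 10.20 in shCDK2 #10, a difference of 3.17 that was not called (limma adjusted p = 0.0971). None of the 30 was called in shCDK2 #1 or #3, where the medians were 0.09 and 0.28. The mean level of the 30 genes was 7.90 and 8.42 in scramble and 8.33 and 8.23 in shCDK2 #1 at days 2 and 5. In shCDK2 #10 it was 9.28 and 9.56. In the array labelled shCDK2 #3 at day 2 it was 7.895, near scramble, but in shCDK2 #3 at day 5 it was 9.33. The median of shCDK2 #3 thus joins 2 unlike arrays.

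These calls rest on both scramble arrays: without the array of scramble at day 2 or the array labelled scramble at day 5, limma called none of the 30 and none of all genes in shCDK2 #10, with scramble down to 1 array. The sizes stayed close: without scramble at day 2 the change was 1.81 for BTG1, 2.67 for CDKN1A, 2.33 for PLAAT4, 4.38 for TNFSF10, 1.22 for UBA7 and 1.58 for TBL1X. After median centring 2 of the 30, BTG1 and CDKN1A, were called, and without 1 array of shCDK2 #1 or #3 the count was 10 or 12. TBL1X lost its call when its probe sets were averaged (limma adjusted p = 0.0686) and after median centring (0.0618), and TNFSF10 when averaged (0.0504). Without shCDK2 #10 at day 2 the limma adjusted p was 0.0768 for PLAAT4, 0.134 for UBA7 and 0.106 for TBL1X, and without shCDK2 #10 at day 5 it was 0.0728 for TNFSF10, 0.0576 for UBA7 and 0.0657 for TBL1X. TNFSF10 and UBA7 are known to respond to interferon as well. Of the 27 interferon response genes 2, BST2 and IFIH1, were called higher in shCDK2 #10, as were 1.69% of all genes. The list median was 1.95, against -0.09 over all genes. The part of interferon genes in the result was not tested.

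Of 12 tested genes known to fall with retinoic acid none was called in shCDK2 #10 (median 0.13). The list was split, with 7 of the 12 above scramble in shCDK2 #10 and the others below. PIM1, a serine/threonine kinase of this list, was 1.83 higher (limma adjusted p = 0.109). PRTN3 was lower, at 9.985 and 9.76 in shCDK2 #10 beside 11.18 and 10.76 in scramble at days 2 and 5. Of 21 PML nuclear body and SUMO genes none was called (median -0.02). HIPK2, a kinase found in these bodies, was 1.58 higher (limma adjusted p = 0.0930), and the body components SP100 and SP110, which the interferon list also holds, were 1.05 and 0.94 higher (limma adjusted p = 0.139 and 0.0985). No gene of these 7 lists was called in shCDK2 #1 or #3.

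**Figure D4:**
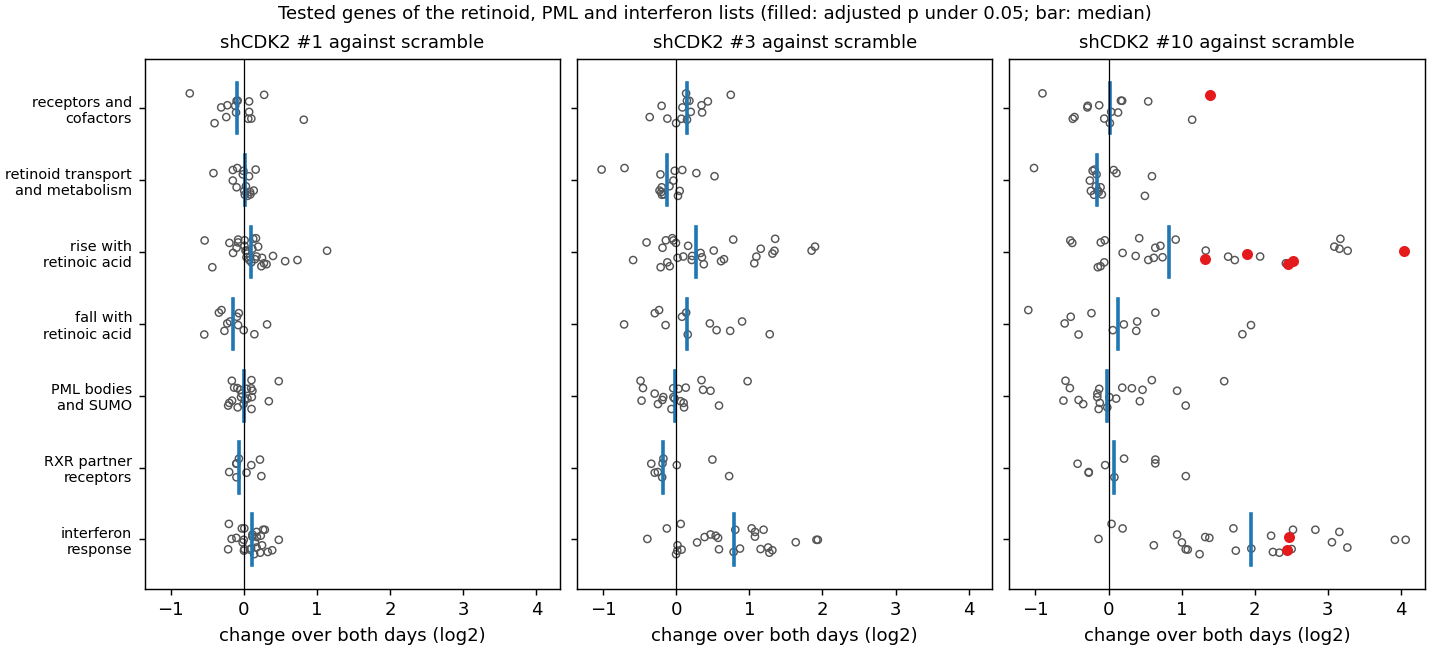
Change of each tested gene of 7 lists against scramble over both days (horizontal axis, log2, 1 panel per hairpin and 1 point per gene, with the lists on the vertical axis; filled points have a limma adjusted p under 0.05 and the bar is the list's median). Filled points are found in the panel of shCDK2 #10 alone, with 5 among the genes known to rise with retinoic acid, 2 among the interferon response genes and 1 among the receptors and cofactors.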

How the data were processed

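Log2 signals for 49395 probe sets on 8 Affymetrix arrays were used as the authors deposited them. The submitters' processing notes name Partek, with no version, and how the arrays were normalized is not given in the sources used here, and the log2 scale was inferred from the values. Of the probe sets, 44994 have 1 gene in the array annotation, 1832 several and 2569 none, and only the first were used. RefSeq held 44967 of them. Each gene stands at its probe set with the highest mean, and genes were tested, if that mean passed the 40th percentile over probe sets (5.83), with limma 3.58.1 in R 4.3.3 (with the data.table package, version 1.17.8).

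Constructs were compared in a model of construct plus day, with 3 residual degrees of freedom and a prior of 4.54. A model of 4 group means, with 4 residual and 3.13 prior degrees of freedom, gave shCDK2 against scramble on each day, day 5 against day 2 within shCDK2, and their difference; it assumes that scramble varies like the hairpins, having 1 array a day. Tests were two-sided. The code was tested on simulated data.

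The genes, lists, tests and the rule for naming list genes (up to 4 per list with the largest mean absolute change over the hairpins, and every called one) were chosen with earlier results of these data known. Alternatives were quantile normalization, median centring, averaging a gene's probe sets, no filter, an intensity trend in limma, each array left out, and a replicate block. The alternatives for the genes known to rise with retinoic acid and for TBL1X were added after their values were seen. The number of arrays limits the precision.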

Additional observations from a re-analysis of the deposited data

How the results depend on the processing

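No member's call in the report was lost, since none was made. Of 432 member values under the alternatives, 387 kept their direction and side of the threshold, 38 changed sign, at a size of at most 0.42, and 7, all of DHRS3, newly passed. Genes called in shCDK2 #3 (4) became 0 with median centring, 0 with the mean of probe sets and 9 with an intensity trend, and 0 to 213 with an array left out. In shCDK2 #10 (258) they became 82 with median centring and 0 to 960 with an array left out, and the retinoic acid-induced genes called (5) became 2 and 0 to 12. Without either scramble array the 258 became 0, and without either array of shCDK2 #3 960. Of the genes called in shCDK2 #10, 84.1% were higher, and 97.6% after median centring. In shCDK2 #10 against #1 (42) the count was 0 with median centring, 19 with the mean of probe sets, 71 with the trend and 0 to 612 with an array left out. In #10 against #3 (0) it was 0 to 33 with an array left out, and in #3 against #1 (0) it was 1 with the trend and 0 to 465. Members called in shCDK2 #10 were 1 with the trend and 0 to 1 with an array left out, as in #10 against #1. Of the PML and RARA probe sets, 1 was called in shCDK2 #10 after quantile normalization. The cause was not tested.

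Signs changed as follows. With quantile normalization RXRB was 0.034 and TGM2 0.052 in shCDK2 #1, and PML -0.017 in shCDK2 #10. With median centring RXRB was 0.0066 in shCDK2 #10, and the difference of the DHRS3 changes between days 0.043. With the mean of probe sets PML was 0.016, RARA 0.058, RXRB 0.069 and TGM2 0.20 in shCDK2 #1, and RARA -0.029 and RXRB 0.016 in shCDK2 #10. With an array left out, the ranges that crossed 0 in shCDK2 #1 were -0.33 to 0.063 for RARA, -0.10 to 0.44 for RARG, -0.24 to 0.38 for RXRA, -0.19 to 0.10 for RXRB, -0.24 to 0.23 for TGM2 and -0.049 to 0.37 for CD38. In shCDK2 #3 they were -0.57 to 0.0445 for PML, -0.62 to 0.15 for RARG, -0.15 to 0.63 for RXRA and -0.20 to 0.0073 for CD38. In shCDK2 #10 they were -0.36 to 0.40 for PML, -0.205 to 0.30 for RARA, -0.53 to 0.0104 for RARG, -0.054 to 0.01 for RXRB and -0.037 to 0.33 for CD38. Other member changes that moved by over 1.5 times without a change of sign were -0.30 to -0.03 for PML and 0.02 to 0.47 for DHRS3 in shCDK2 #1, 0.03 to 0.31 for RXRB in shCDK2 #3, and 0.25 to 0.76 for RARA in #10 against #3. For DHRS3 the ranges that crossed 0 were -0.305 to 0.75 in #10 against #3, -0.61 to 0.33 in day 5 against day 2 within shCDK2, and -0.52 to 0.42 in the difference of the changes.

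By their labels, same-numbered arrays carry the same hairpin. Their deviations from the group means at days 2 and 5 correlated at 0.715 for #1, -0.228 for #3 and 0.432 for #10 over genes. The array of #10 at day 2 correlated at 0.568 with that of #3 at day 5. The hairpin number was thus not taken as a pairing in the day comparison. The model of construct plus day does take the 2 arrays of a hairpin as its repeats, which these values limit for #3 and #10. With the replicate block, day 5 against day 2 within shCDK2 gave 0 genes and 0 members called in limma, as without it.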
